A study of Homo sapiens with 24 samples.

Results

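TPC-1, a cell line from a papillary thyroid carcinoma, was followed over 1 day of COPZ1 depletion by comparing 3 wells collected 72 h after transfection with 3 wells collected 48 h after it. All 6 wells had received 20 nM of siCOPZ1, an esiRNA, which is a pool of short duplexes against the COPZ1 transcript, delivered with Lipofectamine RNAiMAX in cells grown in DMEM. These 6 arrays were chosen by their titles from the 24 of the study, which also holds the normal thyroid line Nthy-ori 3-1. The same day in 6 TPC-1 wells given 20 nM of the non-targeting siRNA siNT, a single synthetic duplex, served as the control, so the kind of reagent differs together with the depletion wherever siCOPZ1 is set beside siNT. The wells are called triplicates and nothing says that they came from separate experiments, so the spread between them may be technical. Apart from 1 exact test, p-values and standard errors rest on 1 spread per gene, pooled over the wells of all 24 arrays. That pool includes Nthy-ori 3-1 and is not the spread of the wells compared alone.

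COPZ1 encodes the zeta-1 subunit of coatomer, the COPI coat that forms vesicles moving cargo from the Golgi back to the endoplasmic reticulum (ER) and between Golgi cisternae. Loss of coatomer function is known to disturb the Golgi and protein secretion, and cells with misfolded protein in the ER activate the unfolded protein response. Inflammatory genes in epithelial and tumour cells are commonly driven by NF-kB and AP-1, and many of their products act back on the cells that secrete them.

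Each array gives 1 log2 value for each of 18632 genes. The medians of the 24 arrays lay between 6.61 and 6.69, and arrays of one TPC-1 group correlated at 0.971 to 0.986 across genes. The first principal component of the 12 TPC-1 arrays, which held 28.2% of their variance, placed the 3 siCOPZ1 wells of 72 h at 42.2 to 45.2 and the other 9 wells at -26.2 to 4.97. Array number limits the precision here, because 3 wells a group is a small sample. Among thyroid markers in the 6 depleted wells, PAX8 (12.1 to 12.5) and FOXE1 (7.14 to 8.31) were above the median of all values (6.65), whereas NKX2-1, TG, TSHR and SLC5A5 were not. All 5 leukocyte markers (PTPRC, CD3D, CD3E, CD14 and LYZ) were below the lower quartile (4.91) in every depleted well, with 4.78 as the highest value, and their summed log2 level was 18.8 to 19.7 at 48 h and 18.3 to 19.0 at 72 h. Of the fibroblast markers, DCN was below that quartile and LUM was high (10.4 to 12.2). In bulk wells, fewer cells of a kind and less RNA per cell cannot be told apart.

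One well stood apart before any test. In well 1 of siCOPZ1 at 48 h the mean log2 level of the 45 genes in the inflammatory list was 8.39, against 7.56 and 7.12 in wells 2 and 3. The mean of the 42 S-phase genes was 8.46 in that well and 9.32 and 9.20 in wells 2 and 3. Well 1 was therefore nearer to the values of 72 h (9.62, 9.28 and 9.33 for the inflammatory list, and 8.26, 8.44 and 8.46 for S phase) than its partners were. The siNT well 1 of 48 h differed from its partners in the same directions, with an inflammatory mean of 7.34 against 6.65 and 6.74 and an S-phase mean of 8.37 against 9.53 and 9.29. What sets these wells apart was not tested, and counts that move without them are given below.

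**Figure D1:**
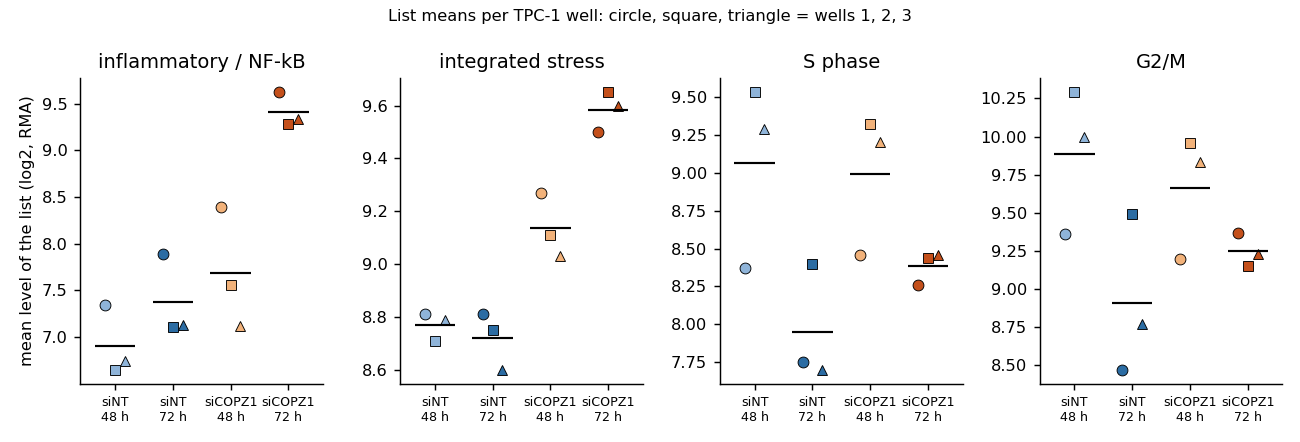
Mean log2 RMA level of the genes in 4 lists in each of the 12 TPC-1 wells, with siNT in blue, siCOPZ1 in orange, and a line at the mean of each group of 3. The inflammatory mean of siCOPZ1 reached 9.28 to 9.62 at 72 h, above every other well, while well 1 (circle) of 48 h lay apart from wells 2 and 3 in both siRNA groups.

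The target was depleted at both times, and its level was higher at 72 h. The log2 level of COPZ1 in siCOPZ1 wells was 7.65, 7.62 and 8.30 at 48 h and 8.48, 9.23 and 9.14 at 72 h, against 11.02 to 11.17 in the 6 siNT wells. The wells of the 2 times did not overlap, and all 6 stayed far under siNT. COPZ1 stood at 10.5% of the siNT level at 48 h and at 22.2% at 72 h. The rise of 1.10 ± 0.23 (SE, n = 3 wells a time, log2) passed limma's test over all genes (adjusted p = 0.00519), while the exact two-sided permutation test gave p = 0.1, the smallest that 3 against 3 wells allow. Its difference from the change in siNT wells was 1.08 (adjusted p = 0.0888 in limma) and was not called. The paralog COPZ2, which encodes the zeta-2 subunit, changed by -0.39 ± 0.14 (adjusted p = 0.103) and was not called.

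Over the day 1231 of 18632 genes (6.61%) changed in depleted wells at an adjusted p below 0.05 in limma, 592 of them higher (3.18%) and 639 lower (3.43%) at 72 h. Of these, 242 rose and 155 fell at least 2-fold. The large changes were thus mainly rises, although the full counts were near even. The 3 wells of 72 h did not overlap the 3 of 48 h for 4459 genes, 23.9% of those tested. In the siNT wells 391 genes (2.1%) changed over the same day, 56 higher (0.301%) and 335 lower (1.8%). Both siRNA groups called 43 genes, and 40 of these moved in the same direction, 37 lower and 3 higher. Those 40 are 3.25% of the siCOPZ1 calls and 10.2% of the siNT calls. This overlap counts only genes called in both groups. By sign alone, 392 of the 592 siCOPZ1 rises were also above 0 in siNT wells, and 368 of the 639 falls were below 0. The median siNT change over all genes was 0.00459.

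The test of the difference between the changes called 381 genes (2.04%), with 175 more positive (0.939%) and 206 more negative (1.11%) in siCOPZ1. Of the 1231 genes that changed in depleted wells, 295 were also called by this test, 147 rises and 148 falls. For the 936 genes not called by the test of the difference, a change particular to depletion was not shown. The counts depend on single wells: without well 3 of siCOPZ1 at 48 h the fit called 510 genes, without well 2 of that time 733, and without well 2 of 72 h 776. Of the 125 called members of the gene lists described below, 75 were no longer called once some single well of the 6 was removed.

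**Figure D2:**
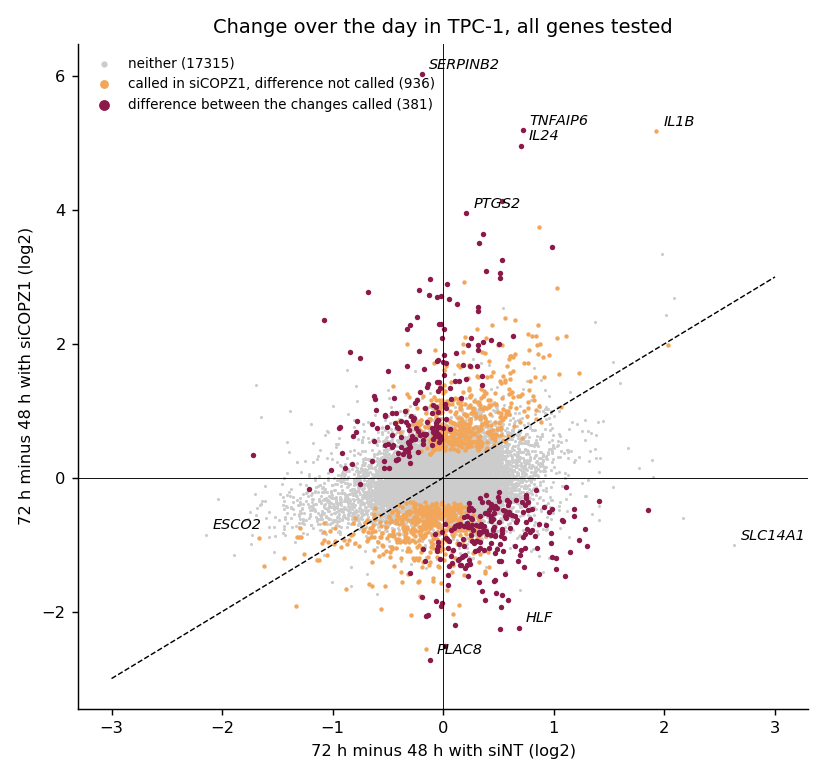
Log2 change from 48 h to 72 h in siCOPZ1 wells (vertical axis) against that in siNT wells (horizontal axis) for 18632 genes, with equal change on the dashed line. SERPINB2, TNFAIP6, IL24 and PTGS2 lie high on the vertical axis and between -0.19 and 0.72 on the horizontal one, and IL1B lies at 1.93 on the horizontal one (not called). ESCO2 (-2.15) and SLC14A1 (2.62) lie furthest out on the horizontal axis among the labelled genes, and the difference between the changes was not called for either.

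Among named genes whose wells did not overlap, the 10 largest called rises were those of SERPINB2, TNFAIP6, IL1B, IL24, IL1A, PTGS2, CLEC4E, CCL20, SCG5 and MMP3. SERPINB2, an inhibitor of plasminogen activators, had log2 levels of 5.82, 5.75 and 3.93 at 48 h and 10.76, 11.83 and 10.99 at 72 h. Every siNT well was at or below 5.56, so at 48 h depleted wells overlapped siNT wells and at 72 h they did not. The difference between the times was 6.03 ± 0.51 (65.3-fold, adjusted p = 6.12e-07), and siNT wells changed by -0.19 (adjusted p = 0.896). TNFAIP6, a secreted hyaluronan-binding protein induced by cytokines, went from 6.50, 4.32 and 3.27 to 10.5, 9.57 and 9.61, a rise of 5.20 ± 0.60 (adjusted p = 1.87e-05). Here well 1 of 48 h was again the highest of its group.

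IL24, a cytokine of the interleukin-10 family, read 7.11, 5.07 and 4.98 at 48 h and 12.1, 10.3 and 9.67 at 72 h (4.96 ± 0.56, adjusted p = 1.36e-05). PTGS2, the inducible cyclooxygenase of prostaglandin synthesis, was level among the wells of 48 h at 5.95, 6.04 and 5.83 and read 11.5, 9.04 and 9.17 at 72 h (3.95 ± 0.42, adjusted p = 6.67e-06). Its difference from siNT was 0.18 at 48 h (adjusted p = 0.938, not called) and 3.93 at 72 h (adjusted p = 2.34e-06). CCL20, a chemokine that attracts lymphocytes and dendritic cells, rose from 4.91, 4.13 and 3.55 to 8.50, 7.14 and 7.87 (3.64 ± 0.31, adjusted p = 6.12e-07). For all 3 genes the groups of wells were separate, as the rule for naming the largest rises required. The changes of SERPINB2, TNFAIP6, IL24, PTGS2 and CCL20 also exceeded those in siNT wells by the test of the difference, by 6.22 (adjusted p = 0.000124), 4.48 (0.00777), 4.26 (0.00587), 3.75 (0.00164) and 3.28 (0.000357) on the log2 scale. With the 12 TPC-1 arrays alone the differences of TNFAIP6, IL24 and PTGS2 were not called (adjusted p = 0.105, 0.0908 and 0.0522).

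The interleukin-1 genes showed the spread between wells most plainly. IL1B, a pro-inflammatory cytokine made as an inactive precursor, read 9.51, 4.52 and 6.97 at 48 h and 12.61, 11.88 and 12.03 at 72 h. The wells did not overlap, as the naming rule required, but those of 48 h differed from one another by more than many genes changed over the day. The rise was 5.18 ± 0.88 (adjusted p = 0.00103). In siNT wells IL1B read 8.55, 5.10 and 6.38 at 48 h and 9.96, 7.37 and 8.49 at 72 h, a change of 1.93 (adjusted p = 0.259). The difference between these changes was 3.25, with a 95% interval of 0.67 to 5.84, and was not called (adjusted p = 0.193). Limma called it in 3 alternative fits and not in the other 18. These were a block by well number (0.0125), no TPC-1 arrays numbered 1 (0.012) and no siCOPZ1 48 h well 1 (0.028). IL1A, a related cytokine that cells hold as an active precursor, went from 9.73, 7.26 and 6.88 to 12.16, 12.12 and 11.99 (4.14 ± 0.61, adjusted p = 0.000255), and its difference from the siNT change was called (3.61, adjusted p = 0.032). That call was lost with the 12 TPC-1 arrays alone (adjusted p = 0.219) and when any 1 of 8 of the 12 wells was left out (0.056 to 0.104).

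The other genes of the 10 largest rises were CLEC4E, SCG5 and MMP3. CLEC4E, a C-type lectin receptor of myeloid cells, read 7.88, 3.98 and 4.06 at 48 h and 10.2, 8.13 and 8.78 at 72 h (3.75 ± 0.87, adjusted p = 0.0122), a rise that was not called without well 2 or well 3 of 48 h or well 1 of 72 h. Well 1 of 48 h was close to the 72 h range, and the difference from siNT was not called (2.88, 95% interval 0.31 to 5.46, adjusted p = 0.258). The same 3 alternative fits as for IL1B called this difference (0.00112, 2.88e-06 and 0.0355 in limma), and the other 17 did not. SCG5, a chaperone of a prohormone convertase in the secretory pathway, rose from 6.99, 5.53 and 5.30 to 9.90, 9.53 and 8.91 (3.50 ± 0.36, adjusted p = 5.82e-06).

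**Figure D3:**
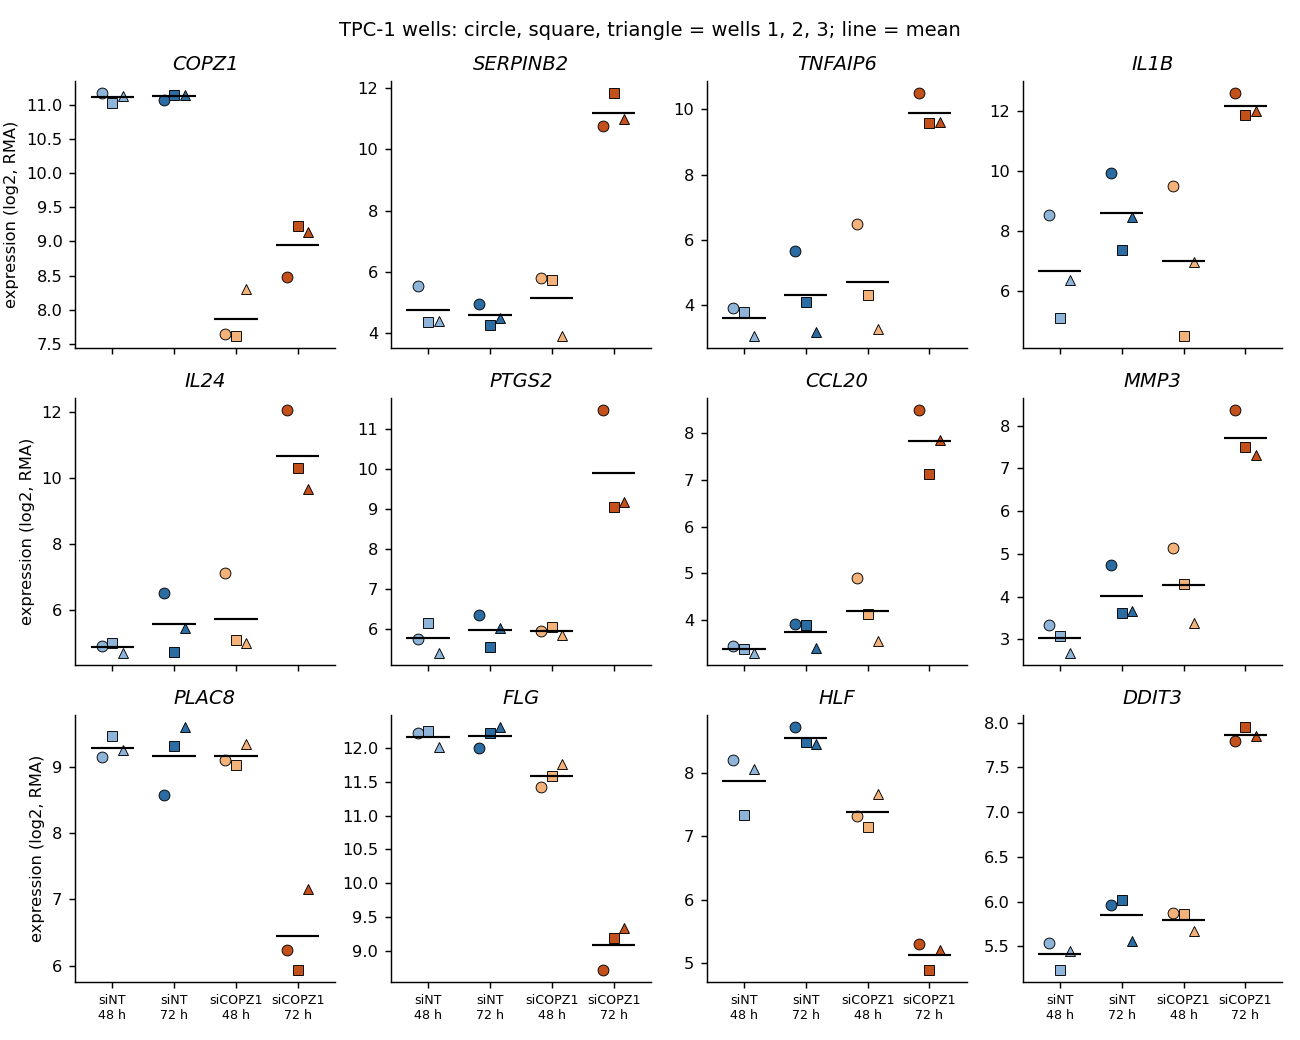
Log2 RMA levels of 12 genes in the 12 TPC-1 wells, by siRNA and time, with wells 1, 2 and 3 as circle, square and triangle and a line at the group mean. For each of the 12 genes the 3 siCOPZ1 wells of 72 h do not overlap the 3 of 48 h. The naming rule required this for all but COPZ1 and DDIT3. The wells of 48 h spread widely in IL1B (4.52 to 9.51) and little in PTGS2 (5.83 to 6.04).

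The promoters of 3 of these genes and of FLG, a gene that fell and is described below, are shown. They were picked because they hold matches to the binding letters of AP-1 or NF-kB, which several other large rises lack. These are RefSeq sequences on GRCh38.p14, giving the 250 bases before the annotated start, 5′ to 3′ on the gene's strand. Capitals mark a match to the AP-1 motif TGANTCA in SERPINB2, TNFAIP6 and FLG and to the kB consensus in CCL20.
SERPINB2 (chr18:63887455-63887704, plus strand): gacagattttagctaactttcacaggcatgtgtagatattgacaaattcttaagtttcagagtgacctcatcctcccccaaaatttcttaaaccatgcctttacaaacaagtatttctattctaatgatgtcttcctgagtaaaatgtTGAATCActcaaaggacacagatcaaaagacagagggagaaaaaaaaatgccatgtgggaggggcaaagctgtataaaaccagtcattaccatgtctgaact
TNFAIP6 (chr2:151357342-151357591, plus strand): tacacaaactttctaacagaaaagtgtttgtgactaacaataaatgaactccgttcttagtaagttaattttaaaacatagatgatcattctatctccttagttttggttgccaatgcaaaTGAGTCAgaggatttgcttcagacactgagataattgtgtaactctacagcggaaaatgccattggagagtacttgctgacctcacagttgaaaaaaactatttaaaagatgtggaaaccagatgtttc
CCL20 (chr2:227813592-227813841, plus strand): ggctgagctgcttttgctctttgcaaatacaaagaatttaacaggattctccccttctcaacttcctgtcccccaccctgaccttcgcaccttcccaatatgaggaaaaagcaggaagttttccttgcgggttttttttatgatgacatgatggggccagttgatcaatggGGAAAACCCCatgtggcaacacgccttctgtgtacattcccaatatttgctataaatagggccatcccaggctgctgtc
FLG (chr1:152325240-152325489, minus strand): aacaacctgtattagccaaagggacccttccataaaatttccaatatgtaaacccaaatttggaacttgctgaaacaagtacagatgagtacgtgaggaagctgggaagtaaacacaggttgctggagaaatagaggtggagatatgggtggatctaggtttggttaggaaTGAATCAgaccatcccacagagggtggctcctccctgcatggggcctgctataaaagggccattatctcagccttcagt
The matches began 102, 129, 79 and 79 bases before the start in SERPINB2, TNFAIP6, CCL20 and FLG. AP-1 letters occurred, on either strand and in the 300-base window that adds 50 bases after the start, in 22 of the 179 promoters found for genes that rose at least 2-fold (12.3%), in 8 of 119 for genes that fell as much (6.72%) and in 833 of 14744 over all genes tested (5.65%). Over all called genes the shares were 7.53% of rises and 4.79% of falls. The kB consensus, added after values had been seen, was in 7 of 25 promoters of inflammatory genes that rose and in 1833 of 14744 over all genes (12.4%), against 11.9% of all called rises and 16.8% of all called falls. The inflammatory list was drawn up to hold NF-kB genes as well, so its kB share is not independent of that choice. A match is a description of letters, and FLG holds one although it fell. Among the other largest rises, the promoters of IL1B, IL24, PTGS2, CLEC4E and SCG5 held neither AP-1 letters nor the kB consensus. That of IL1A held AP-1 letters, and that of CXCL5, a further riser, held the kB consensus. Among the largest falls, FGFR4 held the kB consensus, and PLAC8, SLCO4C1, HLF, KCNIP1 and BCO1 held neither. No promoter was found for MMP3, CYP24A1, KRT80 or CHST1. None of these motifs contains another.

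Of the 45 genes in the inflammatory and NF-kB list, 29 rose over the day and 1 fell, against 3.18% and 3.43% of all genes. The median change was 1.44, against -0.04 over all genes tested, and 42 of the 45 changes were above 0. In siNT wells none of the 45 was called in limma, 6 were higher at an unadjusted p below 0.05, and the median was 0.34. The test of the difference called 11 members as more positive in siCOPZ1 and 1 as more negative. With the 12 TPC-1 arrays alone, CCL20 and CXCL5 kept this call (adjusted p = 0.0296 and 0.00664 in limma). All the other members lost it (0.0522 to 0.219). The calls of NFKB1 and TNFAIP2 were each also lost when any 1 of 6 of the 12 wells was left out, and that of IL1A with any 1 of 8. The list is not independent of earlier results on these data. By role, the secreted members that rose included the neutrophil-attracting chemokine CXCL5 (2.22 ± 0.19, adjusted p = 6.12e-07), whose wells read 4.73, 4.87 and 4.91 at 48 h and 6.80, 7.09 and 7.30 at 72 h. Its siNT wells read 4.93 to 5.17 at 48 h and 4.87 to 5.34 at 72 h, so the 3 depleted wells of 72 h lay above all 6 of them.

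Further members were chosen after their values were seen, to show other roles in the list. The cytokine IL6 rose by 2.84 (adjusted p = 0.00795) from 10.7, 7.98 and 7.32 to 11.9, 11.3 and 11.3. TNF rose by 1.28 (adjusted p = 0.0276) from 9.06, 7.94 and 6.83 to 8.97, 9.45 and 9.24, and here well 1 of 48 h lay inside the 72 h range. Among intracellular members, NFKB1 and NFKB2, the precursors of NF-kB subunits, rose by 1.04 and 1.14 (adjusted p = 0.000596 and 0.00194), and the feedback inhibitor TNFAIP3 rose by 2.12 (adjusted p = 0.00879). BCL2A1, an anti-apoptotic NF-kB target, rose by 2.80 (adjusted p = 0.000118) and, unlike PTGS2, was already above siNT at 48 h (2.68, adjusted p = 0.00365). The member that fell was CX3CL1, a membrane-bound chemokine, by 1.56 on the log2 scale (adjusted p = 0.000857). CXCL8, the neutrophil chemokine interleukin-8, changed by 2.43 and was not called (adjusted p = 0.111), with wells of 11.5, 10.1 and 8.57 at 48 h and 12.6, 12.6 and 12.3 at 72 h. The count of rises was 34 without well 1 of 48 h and 17 without well 3 of 48 h. It was 18 with the 12 TPC-1 arrays alone and 10 with only the siCOPZ1 arrays.

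Of the 43 matrix and protease genes, 9 rose and 3 fell, against 3.18% and 3.43% of all genes, with a median of 0.34. MMP1, the interstitial collagenase, rose from 10.9, 10.6 and 9.74 to 12.7, 12.8 and 12.8 (2.36 ± 0.29, adjusted p = 3.37e-05). It moved the other way in siNT wells, by -1.08 (adjusted p = 0.0536), and the difference was 3.44 (adjusted p = 0.000124). MMP3, a stromelysin that activates collagenases, rose from 5.13, 4.29 and 3.38 to 8.36, 7.49 and 7.30 (3.45 ± 0.45, adjusted p = 6.94e-05). MMP9, a gelatinase, rose from 6.80, 7.04 and 6.79 to 8.61, 9.08 and 8.94 (2.00 ± 0.18, adjusted p = 8.79e-07). All 3 protease genes had separate groups of wells, which for MMP3 the naming rule required. Each also had a called difference from siNT. That of MMP3 (2.47, adjusted p = 0.0445) was lost when any 1 of 9 of the 12 wells was left out (0.0526 to 0.136). That of MMP9 was lost with the 12 TPC-1 arrays alone (0.0634). The other risers of the list included SERPINB2, TIMP1, ITGA2, LOX and PLAUR, and the fallers were SPARC, THBS1 and TIMP2, which encode a collagen-binding glycoprotein, thrombospondin-1 and an inhibitor of metalloproteinases. These fallers, named after their values were seen, fell by 0.86, 1.42 and 0.62 on the log2 scale (adjusted p = 0.00292, 0.0269 and 0.0481). Leaving out any 1 of the 6 wells left 6 to 13 rises and 1 or 2 falls. With the 12 TPC-1 arrays alone there were 8 rises and 2 falls, and with only the 6 siCOPZ1 arrays 5 and 0 in limma.

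Of 45 genes of the integrated stress response, which slows translation and raises amino acid and redox genes, 10 rose and none fell in limma, against 3.18% and 3.43% of all genes (median 0.32), and none was called in siNT wells (median -0.05, with 1 higher and 4 lower at an unadjusted p below 0.05). DDIT3, the transcription factor CHOP, read 5.87, 5.86 and 5.67 at 48 h and 7.79, 7.95 and 7.85 at 72 h. The groups lay far apart with little spread, the rise was 2.06 ± 0.30 (adjusted p = 0.000208), and its difference from siNT (5.24 to 6.02 over both times) was 1.62 (adjusted p = 0.0486), a call lost when any 1 of the 12 wells was left out (0.0583 to 0.128). ALDH1L2, a mitochondrial folate enzyme, rose by 1.18 ± 0.23 (adjusted p = 0.00292) and differed from siNT by 1.79 (adjusted p = 0.00445). WARS, the cytoplasmic tryptophanyl-tRNA synthetase, rose by 1.05 ± 0.20 (adjusted p = 0.00314). STC2, a secreted glycoprotein, rose by 1.23 ± 0.26 (adjusted p = 0.00594) after already standing above siNT at 48 h (1.36, adjusted p = 0.0414).

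Of 38 genes of ER chaperones and degradation, 8 rose and none fell, against the same 3.18% and 3.43% (median 0.26), with 0 called in siNT wells in limma, 1 higher and 5 lower there at an unadjusted p below 0.05, and a median of -0.11. ERN1, the sensor kinase of the unfolded protein response, rose from 6.48, 5.65 and 5.47 to 7.86, 7.69 and 7.65 (1.86 ± 0.33, adjusted p = 0.0016). VIMP, now named SELENOS and part of the machinery that moves misfolded proteins out of the ER, rose by 0.87 ± 0.16 (adjusted p = 0.00194). EDEM1 and SEL1L, which route misfolded glycoproteins to degradation, rose by 0.74 ± 0.15 and 0.64 ± 0.15 (adjusted p = 0.00481 and 0.0105). VIMP, EDEM1, SEL1L and DNAJC3 were the 4 members whose difference from siNT was called (adjusted p = 0.0348, 0.0445, 0.0455 and 0.0341). Each of these calls was lost when any 1 of 8 to 10 of the 12 wells was left out and with the 12 TPC-1 arrays alone (0.169, 0.222, 0.165 and 0.214). HSPA5, the major ER chaperone, changed by 0.27 (adjusted p = 0.103) and was not called, although it stood above siNT at 72 h (0.79, adjusted p = 1.44e-05). Without well 3 of 48 h the counts of rises in the integrated stress and ER lists were 3 and 4, without well 2 of 48 h 6 and 3, without well 1 of 72 h 7 and 5, and without well 2 of 72 h 6 and 5. They were 8 and 4 with the 12 TPC-1 arrays alone and 3 and 1 with only the 6 siCOPZ1 arrays.

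In the list of 54 COPI and Golgi genes, 4 rose and 1 fell (9.26% called, against 6.61% of all genes, median 0.15), and none of 20 COPII genes was called in limma (median 0.19, with 4 higher and 0 lower at an unadjusted p below 0.05). GOLGB1 encodes giantin, a tether of Golgi membranes, and its wells moved from 9.25, 8.86 and 8.93 to 9.83, 9.74 and 9.77 (0.76 ± 0.14, adjusted p = 0.00178). SEC22B, a fusion protein of ER-to-Golgi traffic, rose by 0.63 ± 0.16 (adjusted p = 0.022), and GOLGA2, a cis-Golgi matrix protein, by 0.47 ± 0.13 (adjusted p = 0.04, not called when any 1 of the 6 wells was left out). RAB1B, a GTPase of the same step, fell from 11.90, 11.79 and 11.96 to 11.30, 11.32 and 11.23 (-0.60 ± 0.14, adjusted p = 0.0135). GOLGA4, a trans-Golgi golgin, was the fourth riser (0.45, adjusted p = 0.0431). None of the 54 had a called difference from siNT in limma, with 10 at an unadjusted p below 0.05 (7 more positive and 3 more negative). Leaving out any 1 of the 6 wells left 1 or 2 rises. The 12 TPC-1 arrays alone left 2 rises, and only the 6 siCOPZ1 arrays left 0 in limma.

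Of 43 genes of autophagy and lysosomes, 6 rose, against 3.18% of all genes (median 0.19, against 0.16 in siNT). OPTN, an autophagy receptor, rose by 0.91 ± 0.16 (adjusted p = 0.00124), WIPI1, a protein of the forming autophagosome, by 0.92 ± 0.18 (adjusted p = 0.00308), the lysosomal protease CTSB by 0.65 ± 0.14 (adjusted p = 0.00765) and ATG7, an enzyme of autophagosome formation, by 0.76 ± 0.17 (adjusted p = 0.0111). No member's difference from siNT was called in limma, with 6 more positive and 5 more negative at an unadjusted p below 0.05, and the value for ATG7 was 0.90 (adjusted p = 0.0649). The count fell to 3 without well 3 of 48 h or with the 12 TPC-1 arrays alone, and to 0 in limma with only the 6 siCOPZ1 arrays.

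Of 34 hypoxia and glycolysis genes, 11 rose and none fell in limma, against 3.18% and 3.43% of all genes (median 0.45, against 0.07 in siNT). ENO2, a glycolytic enolase, read 8.38, 8.04 and 7.77 at 48 h and 9.27, 9.18 and 8.98 at 72 h (1.08 ± 0.16, adjusted p = 0.0002), and it was the member with a called difference from siNT (1.17, adjusted p = 0.00671, and 0.0997 with the 12 TPC-1 arrays alone). P4HA2, a collagen prolyl hydroxylase, rose by 0.90 ± 0.19 (adjusted p = 0.00642), PFKFB4, which sets a regulator of glycolysis, by 0.93 ± 0.20 (adjusted p = 0.00864), and SLC2A3, a glucose transporter, by 1.32 ± 0.31 (adjusted p = 0.0125). The rises numbered 3 without well 2 of 48 h and 4 without well 3 of 48 h. They numbered 4 without well 1 of 72 h and 7 without well 3 of 72 h. With the 12 TPC-1 arrays alone there were 3, and with only the siCOPZ1 arrays 0 in limma.

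**Figure D4:**
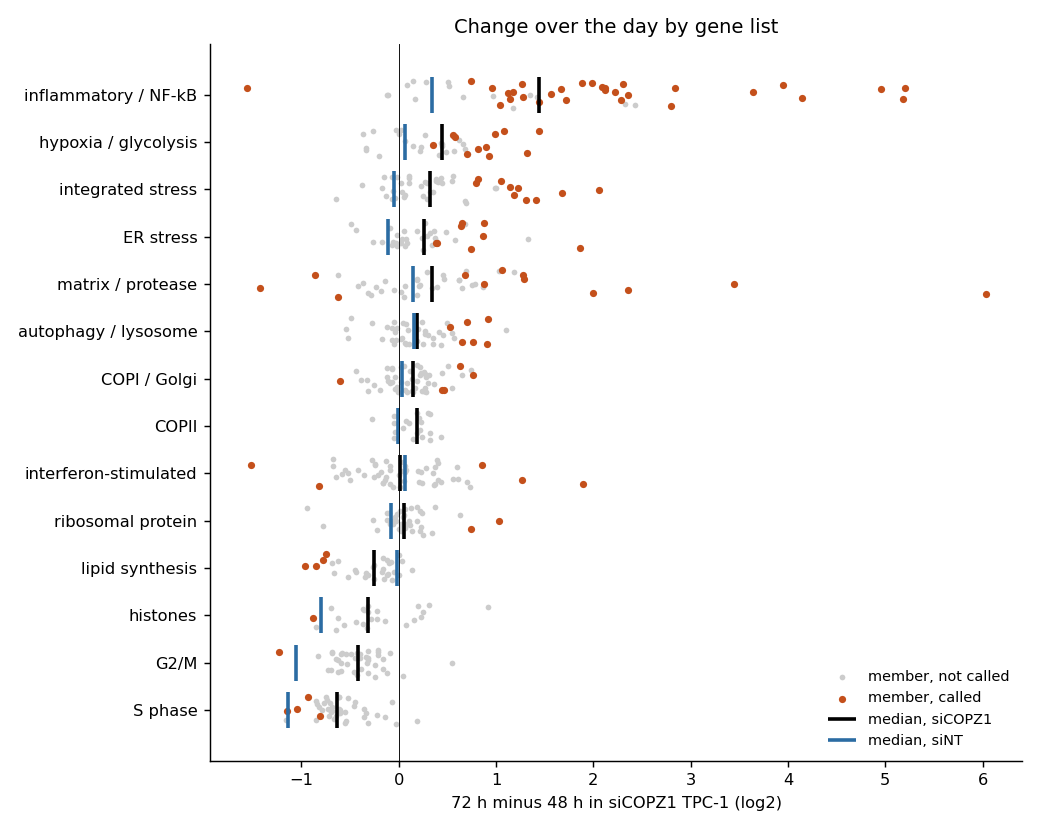
Log2 change from 48 h to 72 h in siCOPZ1 wells for every measured member of 14 gene lists, with called members in orange, the list's median in siCOPZ1 as a black line and its median in siNT as a blue line. The inflammatory median (1.44) lies furthest to the right, and the S-phase and G2/M medians of siCOPZ1 (-0.63 and -0.42) lie nearer to 0 than those of siNT (-1.14 and -1.06).

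Cell cycle genes had mainly negative changes over the day in both siRNA groups. Of 42 S-phase genes 41 had a change below 0 in depleted wells, with a median of -0.63, and 4 were called (9.52%, against 3.43% of all genes called lower). In siNT wells 27 of the 42 were called lower (median -1.14), against 1.8% of all genes. The siNT count was 39 without siNT 48 h well 1, 31 without 72 h well 2, 5 without 72 h well 1, 2 without 48 h well 3 and 0 in limma without 48 h well 2, without 72 h well 3 or with the 12 TPC-1 arrays alone. Of 40 genes of G2 and mitosis 1 was called lower in siCOPZ1 (2.5%, below the 3.43% of all genes, median -0.42). In siNT 20 were (against 1.8% of all genes, median -1.06), which became 35 without siNT 48 h well 1 or 72 h well 2 and 0 without any other siNT well. At an unadjusted p below 0.05, 39 of the 42 and 38 of the 40 were lower in siNT. The test of the difference called none of these 82 genes in limma, with 7 S-phase and 10 G2/M genes more positive in siCOPZ1 and none more negative at an unadjusted p below 0.05, so a smaller fall with siCOPZ1 was not shown. The called members in siCOPZ1, named after their values were seen, were MCM3, a helicase subunit of DNA replication (-0.93, adjusted p = 0.0032), TK1, a thymidine kinase (-1.04, 0.0374), CHAF1B, a histone chaperone subunit (-1.15, 0.0409), PCNA, the polymerase clamp (-0.81, 0.0427), and KIF20A, a mitotic kinesin (-1.23, 0.0159).

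Which wells of 48 h enter moves this count. PCNA read 10.3, 10.9 and 10.8 at 48 h and 9.88, 9.81 and 9.85 at 72 h, so well 1 stood lowest at 48 h and still above all wells of 72 h. Without well 1 of siCOPZ1 at 48 h the S-phase and G2/M counts were 19 and 10, and without the 4 TPC-1 arrays numbered 1 they were 21 and 19, while leaving out any other single siCOPZ1 well gave 1 or 2 and 0 or 1. With the 12 TPC-1 arrays alone, and with only the siCOPZ1 arrays, both siCOPZ1 counts were 0 in limma. The largest falls in siNT were also those of cell cycle genes. ESCO2, an acetyltransferase of sister chromatid cohesion, fell by 2.15 on the log2 scale (adjusted p = 0.0188), CCNE2, a cyclin of the G1 to S transition, by 1.89 (0.0196) and POLE2, a DNA polymerase subunit, by 1.79 (0.00843). Without siNT 48 h well 2 these falls had adjusted p of 0.143, 0.16 and 0.0939, and with the 12 TPC-1 arrays alone 0.195, 0.219 and 0.173. In siCOPZ1 their changes were -0.85 (adjusted p = 0.285), -1.16 (0.0859) and -0.64 (0.251). Promoters of 70 of the 82 genes were found, and the CHR motif TTTGAA was in 26 of them (37.1%) and in 1769 of 14744 promoters over all genes, and CCAAT was in 68.6% of the 70 and 36.4% of all. Of 24 histone genes 1, HIST1H2BL, was called lower in siCOPZ1 (-0.88, adjusted p = 0.00496) and 9 were lower in siNT, with 1 to 13 when 1 siNT well was left out. Over all genes 3.43% were lower in siCOPZ1 and 1.8% in siNT.

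The genes that rose most in siNT wells were not called with siCOPZ1. SLC14A1, a urea transporter, rose by 2.62 in siNT (adjusted p = 0.0485) and changed by -1.01 in siCOPZ1 (adjusted p = 0.429), where its wells of 48 h spread from 4.62 to 8.01. MKRN3, a ubiquitin ligase, rose by 1.90 (adjusted p = 0.0292) and ADAMTS5, an aggrecan-cleaving protease, by 1.88 (adjusted p = 0.0316), against 0.02 and 0.26 in siCOPZ1. These siNT calls were lost without 48 h well 2 (adjusted p = 0.334, 0.109 and 0.225) and with the 12 TPC-1 arrays alone (0.262, 0.195 and 0.223). The differences between the changes were -3.64, -1.88 and -1.62 and none was called (adjusted p = 0.0547, 0.124 and 0.199).

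By the same rule, the 10 largest called falls in depleted wells were those of PLAC8, CYP24A1, FLG, SLCO4C1, HLF, KCNIP1, KRT80, BCO1, CHST1 and FGFR4. PLAC8, a small cysteine-rich protein, read 9.11, 9.03 and 9.35 at 48 h and 6.24, 5.94 and 7.16 at 72 h, a fall of 2.72 ± 0.24 on the log2 scale (6.58-fold, adjusted p = 9.53e-07). Its siNT wells stayed between 8.58 and 9.60, so only the siCOPZ1 wells of 72 h stood apart among the 12. FLG, which encodes filaggrin of the skin barrier, fell from 11.4, 11.6 and 11.8 to 8.72, 9.19 and 9.33 (-2.51 ± 0.16, adjusted p = 3.55e-08), and its difference from siNT at 48 h was -0.58 (adjusted p = 0.213, not called). HLF, a transcription factor of the family of clock output regulators, fell from 7.32, 7.14 and 7.67 to 5.30, 4.90 and 5.21 (-2.24 ± 0.22, adjusted p = 2.88e-06). Its siNT wells moved upward by 0.68 (adjusted p = 0.109), and the difference of -2.92 (adjusted p = 8.87e-05) was the most negative among called genes.

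SLCO4C1, an organic anion transporter, fell from 10.0, 9.53 and 10.3 to 7.67, 7.87 and 7.49 (-2.26 ± 0.35, adjusted p = 0.000474). KRT80, a type II keratin, fell from 8.16, 8.64 and 8.51 to 6.48, 6.15 and 6.48 (-2.07 ± 0.21, adjusted p = 4.17e-06), and BCO1, which cleaves beta-carotene, from 7.46, 7.96 and 8.17 to 5.58, 6.05 and 5.78 (-2.06 ± 0.19, adjusted p = 1.14e-06). The wells of both times were separate in each, as the naming rule required. KCNIP1, a potassium channel subunit, fell by 2.19 ± 0.33 on the log2 scale (adjusted p = 0.000272) with well 1 lowest at 72 h (7.68, against 9.03 and 9.30). For PLAC8, FLG, HLF, SLCO4C1, KRT80, BCO1 and KCNIP1 the difference from siNT was called. It was not called for the remaining genes of the 10 largest falls: CYP24A1, which inactivates vitamin D (-2.56 ± 0.47, adjusted p = 0.00208, difference -2.40, adjusted p = 0.0667), CHST1, a sulfotransferase of keratan sulfate (-2.05 ± 0.33, adjusted p = 0.000669, difference -1.76, adjusted p = 0.0574), and FGFR4, a fibroblast growth factor receptor (-2.04 ± 0.48, adjusted p = 0.0124, difference -2.13, adjusted p = 0.112), whose fall was also not called without well 3 of 48 h or of 72 h. CDH6, a cadherin, fell by 1.46 on the log2 scale (adjusted p = 0.0106) while siNT wells changed by 1.10 (adjusted p = 0.0876), a difference of -2.56 (adjusted p = 0.00581). With the 12 TPC-1 arrays alone the differences of KCNIP1 and CDH6 were not called (adjusted p = 0.0725 and 0.0936).

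Among the smaller lists, lipid synthesis had 4 of 31 genes lower and none higher, against 3.43% and 3.18% of all genes (median -0.25, with 2 to 4 lower when 1 of the 6 wells was left out, 3 with the 12 TPC-1 arrays alone and 0 in limma with only the 6 siCOPZ1 arrays). Among these were the desaturase SCD (-0.96, adjusted p = 0.00646), the fatty acid elongase ELOVL6 (-0.78, 0.0338) and mevalonate kinase MVK (-0.75, 0.0293), all named after their values were seen. SCD read 12.7, 12.1 and 12.5 at 48 h and 11.5, 11.4 and 11.5 at 72 h and was the member whose difference from siNT was called (-1.29, adjusted p = 0.0216), a call lost when any 1 of 6 of the 12 wells was left out (0.0513 to 0.0678). Of 19 thyroid genes none rose and 2 fell, against 3.18% and 3.43% of all genes. They were THRB, a thyroid hormone receptor (-1.78, adjusted p = 1.55e-05), and SLC26A4, an anion exchanger (-1.04, adjusted p = 0.0248). In the clock list of 16, 3 fell and 1 rose, against 3.43% and 3.18% of all genes, and 12 were not called (median -0.06). The falls were those of the related factors HLF and DBP and of PER3. NFIL3, a repressor that binds the same sites, rose by 1.04 (adjusted p = 0.00282). DBP fell by 0.99 on the log2 scale (adjusted p = 0.021) and PER3 by 0.70 (0.0172). These 2 calls were each lost when any 1 of 3 of the 6 wells was left out and with the 12 TPC-1 arrays alone (0.118 and 0.117).

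Interferon-stimulated genes showed no common direction, with 3 of 55 higher and 2 lower, against 3.18% and 3.43% of all genes, and a median of 0.01. The 9.09% called lay near the 6.61% of all genes. IFI6, an interferon-induced membrane protein, stood above siNT at 48 h by 1.94 (adjusted p = 0.0291) with wells of 9.88, 11.7 and 10.5. It fell to 9.51, 8.83 and 9.15 at 72 h (-1.52 ± 0.35, adjusted p = 0.0115), where its difference from siNT was -0.05 (adjusted p = 0.95), and the fall was not called without well 2 of 48 h or without well 2 of 72 h. ISG20, an exonuclease (1.27 ± 0.27, adjusted p = 0.0064), DDX60L, a helicase-like protein (0.86 ± 0.19, adjusted p = 0.00796), and GBP2, a guanylate-binding protein (1.89 ± 0.46, adjusted p = 0.0157), rose, and EPSTI1 fell by 0.82 on the log2 scale (adjusted p = 0.0164). ISG15, a ubiquitin-like modifier, and IFIT1, an RNA-binding antiviral protein, read -0.27 and -0.67 and were not called (adjusted p = 0.256 and 0.252). Leaving out 1 well gave 1 to 6 higher and 1 to 4 lower. The 12 TPC-1 arrays alone gave 2 higher and 0 lower in limma, and only the 6 siCOPZ1 arrays gave 0 of either.

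In the remaining lists the counts were small and several of the shares lay near the 6.61% of all genes. Of 34 AP-1 and MAPK genes EGR2 and SPRED1 rose. The p53 and apoptosis list of 39 had CDKN1A, an inhibitor of the cell cycle (1.15, adjusted p = 0.0158), and TNFRSF10B, a death receptor (0.61, adjusted p = 0.0424), higher and BCL2L1, an anti-apoptotic protein, lower (-0.63, adjusted p = 0.022). Of 29 NRF2 and metallothionein genes, FTH1, the ferritin heavy chain, rose by 1.74 (adjusted p = 0.00412) and 3 fell, NQO1 and GSR among them. Among 18 danger signal genes PANX1, a membrane channel that releases ATP, rose by 0.81 (adjusted p = 0.000149) with a called difference from siNT (0.88, adjusted p = 0.0051, and 0.0908 with the 12 TPC-1 arrays alone), DFNA5 rose and P2RY2 fell. Of 23 heat shock genes HSPA1A and HSPA1B, near-identical copies that an array may not separate, rose and HSPB1 fell. Single changes were PSMB10 (of 25 antigen processing genes) and IFNAR2 (of 21 sensing genes) higher, RPS27 and RPS12 (of 41 ribosomal proteins) higher, CYCS higher and NDUFB3 lower (of 31 respiratory chain genes), PDGFRB lower (of 22 markers of other cells) and none of 11 epithelial genes in limma (4 lower at an unadjusted p below 0.05).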

How the data were processed

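Each of the 24 wells was hybridised to 1 Affymetrix whole-transcript array. The values are log2 expression per gene, deposited by the authors, and RMA is named in the submitters' processing notes. No source used here gives the chip type, probe sets or genome build. RMA forces arrays towards 1 distribution and compresses changes of dim genes. Of 18637 genes, 28 symbols turned to dates were kept by identifier, and of 5 repeated symbols the brighter line was kept, leaving 18632.

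A limma model (version 3.58.1, R 4.3.3, two-sided) gave each of the 8 groups its own mean over all 24 arrays, with Benjamini-Hochberg adjustment over all genes per contrast and calls below 0.05. All p-values in the text other than the exact one come from this fit. In simulated data with 18632 genes, it called 67.2% of changes of 1 and 16.4% of 0.5 on the log2 scale in the siCOPZ1 day. Noise was drawn separately for each gene and well there. Shifts of many genes together in 1 well, as seen in well 1 of 48 h, were not simulated, so these rates may not hold here. Of 26 lists with 864 members 843 were found. Members and lists were chosen with earlier results of these data known. Named are COPZ1, COPZ2, the 10 largest called changes each way with separate wells, 4 members by adjusted p of lists with at least 5 calls, the 5 largest differences from siNT each way and the 3 largest siNT changes each way, passing over clone names. A few genes are not reported here. Promoters came from RefSeq (GRCh38.p14) for 14744 genes. Alternatives were the arrays fitted, a replicate block, median centring, leaving out the dimmest 33.3% of genes, an intensity trend, a robust prior, array weights and wells left out.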

Additional observations from a re-analysis of the deposited data

Results flagged for a closer look

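The change over the day differed between siCOPZ1 and siNT wells for 381 genes by limma's test of the difference (adjusted p below 0.05). The differences in log2 change were largest, among called genes, in SERPINB2 (6.22), TNFAIP6 (4.48), IL24 (4.26), PTGS2 (3.75) and IL1A (3.61) on the positive side. On the negative side they were HLF (-2.92), SLCO4C1 (-2.77), PLAC8 (-2.60), CDH6 (-2.56) and FLG (-2.52). In CDH6, HLF and SLCO4C1 the siCOPZ1 wells fell while the siNT wells read higher, so both groups add to these values. The siNT changes were 1.10, 0.68 and 0.51 and none was called (adjusted p = 0.0876, 0.109 and 0.493 in limma). The reagent kind differs together with depletion and cannot be told apart from it here.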

How the results depend on the processing

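The count of genes changed over the day in siCOPZ1 (1231) was 179 when only its 6 arrays were fitted, 502 with the 12 TPC-1 arrays and 397 with a 2-fold minimum, and leaving out 1 well gave 510 to 1454. The count for the difference between the changes (381) was 77 with the 12 arrays and 572 without the 4 TPC-1 arrays numbered 1, and 176 to 812 without 1 well (176 without siCOPZ1 48 h well 3, 243 and 235 without siCOPZ1 72 h wells 2 and 3, 812 and 193 without siNT 48 h wells 1 and 2, 253 and 187 without siNT 72 h wells 2 and 3). The siNT count (391) was 0 in limma with its 6 arrays (1944 genes at an unadjusted p below 0.05), 1 with 12 arrays, 603 without the dimmest 33.3% of genes, 986 with array weights, 1383 without the arrays numbered 1 and 186 with a 2-fold minimum. It ranged from 10 (without siNT 48 h well 2) to 1802 (without siNT 48 h well 1), with 47 without siNT 48 h well 3 and 56 and 30 without siNT 72 h wells 1 and 3, so it rests on single wells. The robust prior, the intensity trend and median centring left all 3 counts within 1.5 times, and centring moved the share of rises among siCOPZ1 calls from 48.1% to 54.2%.

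Same-numbered wells of 48 h and 72 h deviated together at correlations of 0.147, 0.154 and 0.0337 in siCOPZ1 and 0.246, 0.203 and -0.0089 in siNT, so the numbers were not taken to pair the wells. With a replicate block the counts were 1889, 811 and 1128 for siCOPZ1, the difference and siNT. For 103 single values (56 genes in up to 3 comparisons), 1820 values came from alternatives, of which 1575 kept direction and call, 207 lost the call, 38 gained it and none reversed. With only the 6 siCOPZ1 arrays, COPZ1 had an adjusted p of 0.106 and IL1B 0.0758. Among genes named by rule, and beside the losses given with the results, single siCOPZ1 wells ended the call of the day change of ATG7, GBP2, SEC22B, SEL1L and SLC2A3 (48 h well 2), ATG7, CTSB, DDX60L, GBP2, RAB1B, SEC22B and STC2 (48 h well 3), GBP2, PFKFB4 and SLC2A3 (72 h well 1), ATG7 and SEC22B (72 h well 2) and GBP2 and SEC22B (72 h well 3). Other list members named in the text lost the day call when 1 of the 6 wells was left out. GOLGA4 and TIMP2 lost it with any of the 6. CHAF1B, DFNA5, DNAJC3, ELOVL6, HSPA1B, P2RY2, PCNA, PLAUR, PSMB10 and TK1 lost it with 5 of them. BCL2L1, CYCS, GSR, LOX, SLC26A4, SPRED1, TNF and TNFRSF10B lost it with 4. CDKN1A, KIF20A, MVK, NQO1, RPS12 and THBS1 lost it with 3, EPSTI1, HSPA1A and IFNAR2 with 2, and HSPB1, IL6 and TNFAIP3 with 1. Of 27 named differences from siNT, 8 were lost without at least 1 single well (IL1A, MMP3, DDIT3, VIMP, EDEM1, SEL1L, DDX60L and IFI6) and 14 with the 12 arrays, and all 6 named siNT changes were lost both ways. The cause of these shifts was not tested.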

Other observations

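Other genes with a large change over the day in siCOPZ1 and a called difference from siNT were chosen after their values were seen. F3, the tissue factor that starts coagulation, rose by 2.77 ± 0.35 (adjusted p = 5.81e-05) and differed from its siNT change by 3.45 (adjusted p = 0.000783). TFPI2, a secreted serine protease inhibitor, rose by 3.09 ± 0.35 (adjusted p = 1.51e-05). Among receptors, IL7R, a chain of the interleukin-7 receptor, rose by 3.26 ± 0.29 (adjusted p = 9.53e-07), and TNFRSF1B, a receptor for TNF, by 2.72 ± 0.35 (adjusted p = 7.10e-05). The differences of TFPI2 and TNFRSF1B were not called with the 12 TPC-1 arrays alone (adjusted p = 0.094 and 0.0896).

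Further genes, chosen the same way, fell. TGFB2, a transforming growth factor, changed by -1.83 ± 0.28 (adjusted p = 0.000402), IGFBP3, which binds insulin-like growth factors, by -1.72 ± 0.31 (adjusted p = 0.00177), and the proteoglycans VCAN and SDC2 by -1.60 ± 0.14 (adjusted p = 6.12e-07) and -1.70 ± 0.16 (adjusted p = 1.84e-06). The differences from siNT for these 4 genes were -2.42, -2.19, -1.65 and -2.05 (adjusted p = 0.0022, 0.0106, 0.000124 and 8.87e-05). All p-values are from limma over all genes.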
